A study of Mus musculus with 58 samples.

Results

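A set of 10 interferon-stimulated genes was followed across the microglia of the series. The genes are Isg15, Usp18, Rsad2, Cmpk2, Samhd1, Bst2, Ifitm2, Ifitm3, Ifi27l2a and Rtp4. They were chosen as a set of antiviral effectors with earlier results of these data known, so shares of all genes given beside their counts are descriptive. By symbol they were matched to 10 of the 47643 Ensembl genes counted in each library. All 10 were found once and all 10 passed the filter on low counts in each of the 4 comparisons. The 34 microglia samples, in 8 groups, were measured with QuantSeq 3′ mRNA-Seq, which counts reads from the 3′ end of each transcript.

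Primary microglia of wild-type newborn pups were exposed for 24 h to full-length tau fibrils at 2 µg/ml or to vehicle (4 cultures each). Adult microglia were isolated with CD11b beads from male PS19 mice of 10.98 months, which carry a P301S human tau transgene, and from male non-transgenic (NTG) mice of 11.18 (replicates 1 and 2) and 10.98 months (4 mice each). IkbkbCA cultures were Cx3cr1CreERT2/+; IkbkbCA F/F and expressed constitutively active IKKβ, the kinase that switches on NF-κB, from the Rosa locus, and IkbkbWT cultures were Cx3cr1+/+; IkbkbCA F/F (5 cultures each). Ikbkb-/- cultures were Cx3cr1CreERT2/+; Ikbkb F/F, and Ikbkb+/+ cultures were Cx3cr1+/+; Ikbkb F/F (4 cultures each). The cultures of both IKKβ experiments were given 4-hydroxytamoxifen, and the controls lacked Cre and kept both Cx3cr1 copies, so that in each of these experiments the change in IKKβ cannot be told apart from the presence of the Cre and the loss of 1 Cx3cr1 copy. The sources do not say whether cultures of a group came from separate litters, so p-values measure the spread between these samples, which may be partly technical. In bulk RNA, fewer cells of a type and less RNA per cell cannot be told apart.

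Type I interferons bind a receptor that activates a transcription factor complex, which binds interferon-stimulated response elements in the promoters of many genes. ISG15 is a ubiquitin-like protein that is attached to other proteins by UBA7, UBE2L6 and HERC ligases, and USP18 removes it and also damps signalling at the interferon receptor. The products of the other genes act at separate steps. RSAD2 (viperin) makes a chain-terminating nucleotide from CTP, CMPK2 phosphorylates cytidine and uridine monophosphates in mitochondria, SAMHD1 hydrolyses deoxynucleotides, BST2 (tetherin) holds budding virus at the cell surface, and IFITM proteins hinder the fusion of viral and cell membranes. IFI27L2A is a small hydrophobic mitochondrial protein, and RTP4 is a receptor transporter. In microglia such genes mark an interferon-responsive state.

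The promoters are shown because 9 of the 10 members rose in all 3 comparisons of cultured microglia, Ifitm2 being the exception. RefSeq windows of 250 bases before and 50 bases from the gene start on (GRCm38.p6) were at hand for 7 of the 10 members, without Usp18, Ifi27l2a and Rtp4. The core of the interferon-stimulated response element, GAAA then NN then GAAA, was searched on both strands and occurred in 5 of these 7 windows and in 3.44% of all 32851 promoter windows. The gamma-activated site TTCNNNGAA occurred in 3 of 7 (Bst2, Ifitm3 and Samhd1) and in 8.3% of all windows, and an NF-κB motif, GGG then NN then TTTCC, in 0 of 7 and in 1.63% of all. In Bst2 and Ifitm3 the matches of the first and second motif share bases. A match describes letters only. For a motif found in 1.63% of all windows, 0 of 7 does not set the members apart from other genes. Other forms of the NF-κB motif were not searched. The bases before the start of Isg15, Bst2 and Ifitm2, which hold the first motif, and of Cmpk2, which does not, are given 5′ to 3′ with matches of the response element core in capitals.
Isg15 (chr4:156200819-156201068, minus strand): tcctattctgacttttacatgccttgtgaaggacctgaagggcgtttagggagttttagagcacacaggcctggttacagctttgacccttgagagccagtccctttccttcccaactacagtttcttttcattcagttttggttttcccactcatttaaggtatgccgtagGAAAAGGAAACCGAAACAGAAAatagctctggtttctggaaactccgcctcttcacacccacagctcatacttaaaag
Bst2 (chr8:71537473-71537722, minus strand): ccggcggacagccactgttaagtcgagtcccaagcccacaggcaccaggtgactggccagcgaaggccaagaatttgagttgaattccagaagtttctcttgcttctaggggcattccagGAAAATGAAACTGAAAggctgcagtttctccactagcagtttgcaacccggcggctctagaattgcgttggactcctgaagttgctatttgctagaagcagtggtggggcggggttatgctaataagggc
Ifitm2 (chr7:140955962-140956211, minus strand): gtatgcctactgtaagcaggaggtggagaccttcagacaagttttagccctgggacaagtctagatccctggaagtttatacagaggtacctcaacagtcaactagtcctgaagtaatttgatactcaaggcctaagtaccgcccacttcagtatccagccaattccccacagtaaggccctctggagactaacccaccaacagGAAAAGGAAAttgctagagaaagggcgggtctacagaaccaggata
Cmpk2 (chr12:26468965-26469214, plus strand): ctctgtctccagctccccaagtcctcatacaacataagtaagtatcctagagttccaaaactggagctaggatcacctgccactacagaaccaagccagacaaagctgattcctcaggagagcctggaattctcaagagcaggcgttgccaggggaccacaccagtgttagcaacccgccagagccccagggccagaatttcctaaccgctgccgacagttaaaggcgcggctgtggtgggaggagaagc
The match of Rsad2 lies on the opposite strand, and both matches of Ifitm3 lie just after the annotated start, so they are given as windows of 26 bases.
Rsad2 (chr12:26456555-26456580, minus strand): ggtccaacTTTCATTTTCagaaaaca
Ifitm3, first match (chr7:141010725-141010750, minus strand): aaattcagGAAAAGGAAActtctgag
Ifitm3, second match (chr7:141010708-141010733, minus strand): acttctgaGAAACCGAAActgccgca
The 3 matches in Isg15 overlap in a run that begins 78 bases before the start, and the 2 in Bst2 overlap in a run that begins 130 bases before it. Ifitm2 and Ifitm3 each hold the same 10 letters, GAAAAGGAAA, 46 bases before and at base 3 after their starts.

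Libraries held 1672052 to 8349128 counts. Ikbkb fell in Ikbkb-/- microglia to 18.7 to 24.7 CPM from 45.6 to 55.2 CPM in Ikbkb+/+ (log2 fold change -1.20 ± 0.12), as its label states. Its level in IkbkbCA, 45.0 to 60.4 CPM against 40.4 to 58.8 CPM, does not check the transgene, whose transcript need not end in the counted 3′ part of Ikbkb. Cx3cr1 was lower in both Cre-carrying genotypes (log2 fold change -0.56 ± 0.09 in IkbkbCA and -1.15 ± 0.12 in Ikbkb-/-). The 8 microglia markers were all detected in every library, but P2ry12 was only at 3.94 to 9.15 CPM in tau and vehicle cultures, against 2064 to 5104 CPM in the adult microglia. PS19 replicate 1, labelled male, held Xist at 177 CPM against 1.80 to 31.1 CPM in the other 7 adult libraries. Its Ddx3y, a gene of the Y chromosome, was at 123 CPM, within the 101 to 223 CPM of those 7. Its Mrc1, a border-associated macrophage marker, was at 539 CPM against 126 to 249.6 CPM. The 6 markers of these macrophages, Mrc1 included, summed to 838 CPM there against 294 to 541 CPM. Mrc1 made up most of that sum. IkbkbWT replicate 3 and IkbkbCA replicate 3 held the myelin transcript Mbp at 1937 and 723 CPM against 114 to 257 CPM in the other 8 libraries of that experiment. Xist was at 5.65 to 10.4 CPM in Ikbkb-/- and 243 to 401 CPM in Ikbkb+/+ cultures, so the sex of the pups and the genotype cannot be told apart there. It was also uneven in the other IKKβ experiment, at 1.70 to 2.82 CPM in IkbkbWT replicates 1 to 3, 469 and 485 CPM in replicates 4 and 5, and 149.6 to 279 CPM in IkbkbCA. IkbkbWT replicates 4 and 5 were the lowest of their group for every gene of the set but Ifitm2, for which they were the highest. The part of sex in these levels was not tested. In the IKKβ experiments 8 pairs of libraries with adjacent titles, picked after the data were seen, resembled each other (chi-square per gene 2.42 to 8.00). The other 24 pairs within groups had 5.71 to 74.1. These 24 also held pairs with adjacent titles, from 8.04 (Ikbkb+/+ replicates 2 and 3) to 70.4 (IkbkbCA replicates 3 and 4). Adjacent titles therefore did not always go with likeness. The closest pair of each IKKβ group did have adjacent titles, at 4.26 in IkbkbWT, 4.63 in IkbkbCA, 4.48 in Ikbkb+/+ and 2.42 in Ikbkb-/-. None of the 8 pairs was identical or within sampling noise. The PS19 libraries fell into replicates 1 and 2 (62.8) and replicates 3 and 4 (38.1), against 100.3 to 150.6 across them and 4.75 to 30.2 within NTG. For the same relative difference this measure grows with the number of counts. PS19 libraries held 3892830 to 7615105 counts and NTG libraries 1864382 to 5108921, so the values of the 2 groups are not directly comparable.

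In tau-stimulated microglia all 10 genes rose, against 14.5% of the 10408 genes tested that rose and 15.4% that fell (edgeR quasi-likelihood fit, called at an FDR below 0.05 by Benjamini-Hochberg adjustment over all genes tested). Their log2 fold changes were 2.05 to 5.06 with a median of 4.23, where the median of all genes was -0.01. In IkbkbCA microglia 9 of the 10 rose, against 7.31% of 11697 genes (7.16% fell), with a median over the 10 of 2.09. In Ikbkb-/- microglia 9 rose, against 7.71% of 11242 genes, and 1, Ifitm2, fell, against 6.88%. The median over the 10 was 2.34. In PS19 microglia none passed the threshold, against 0.0707% of 11323 genes called higher, and 8 genes in all. All 10 fold changes were above 1 there, 5 had an unadjusted p under 0.05 (977 of all genes), and the median log2 fold change was 0.64. The fourth PS19 library was the lowest of its group for 8 of the 10 genes. Without PS19 replicate 1, the library with high Xist and Mrc1, 8 of the 10 log2 fold changes were above 0 (-0.45 to 1.09), with FDRs of 0.364 to 0.981. Every library of the treated or mutant group lay above every control library for 10 of 10 genes with tau fibrils (14.9% of all genes tested), 8 of 10 in IkbkbCA (6.76%), 9 of 10 in Ikbkb-/- (8.43%) and 2 of 10 in PS19 (3.99%). Expression of single genes is given below as CPM normalized over all 34 libraries, and fold changes come from the fit of the 2 groups compared.

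**Figure D1:**
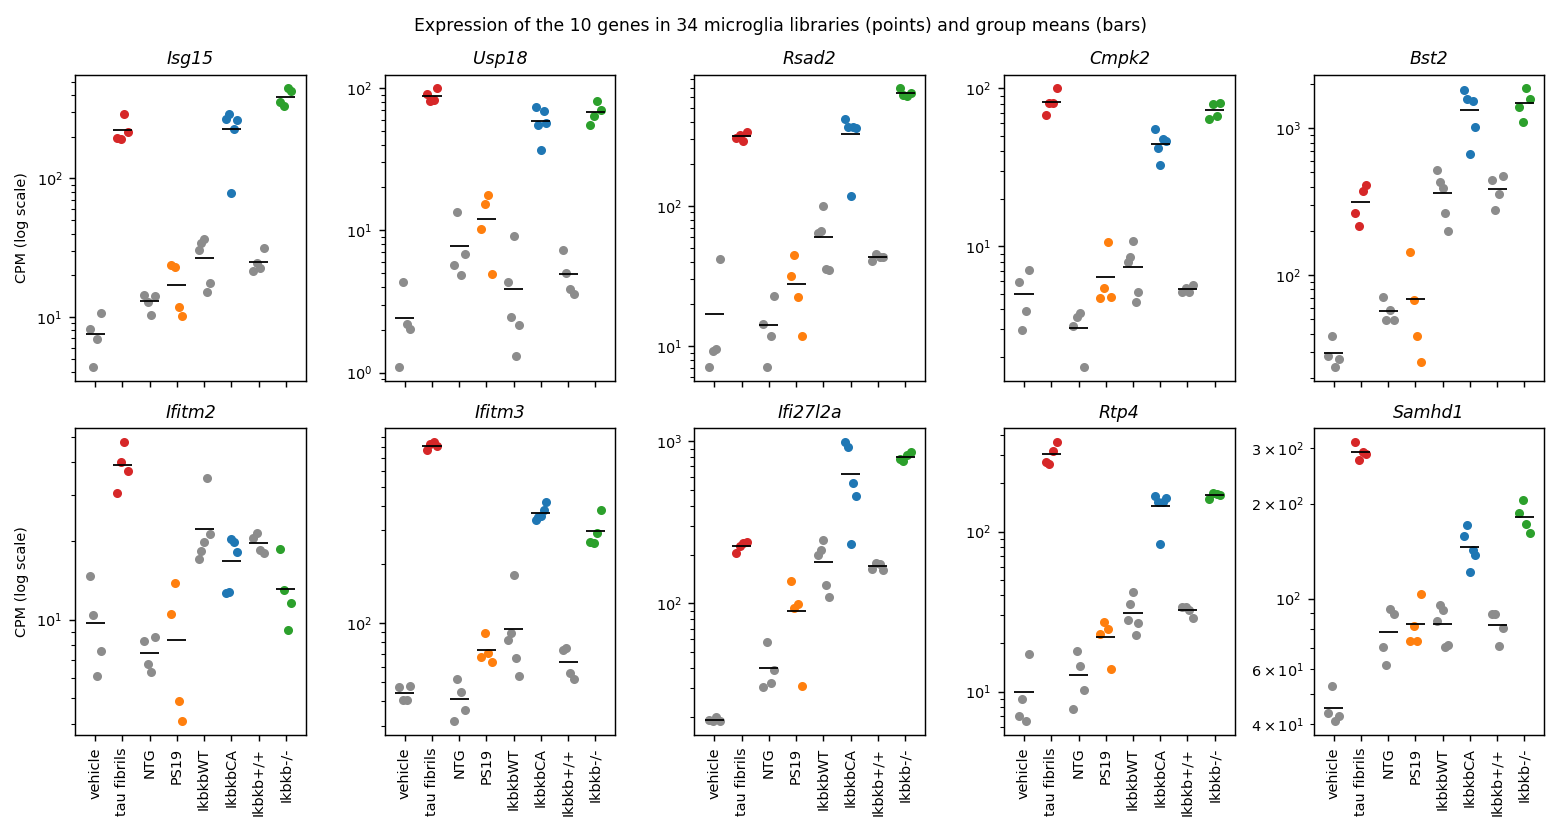
CPM on a log scale of each of the 10 genes in each of the 34 libraries, by group, where points are libraries and bars are group means. Tau fibril, IkbkbCA and Ikbkb-/- libraries sit above their controls for most genes, while Ifitm2 stays between 9.10 and 34.6 CPM in the 18 libraries of the IKKβ experiments.

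**Figure D2:**
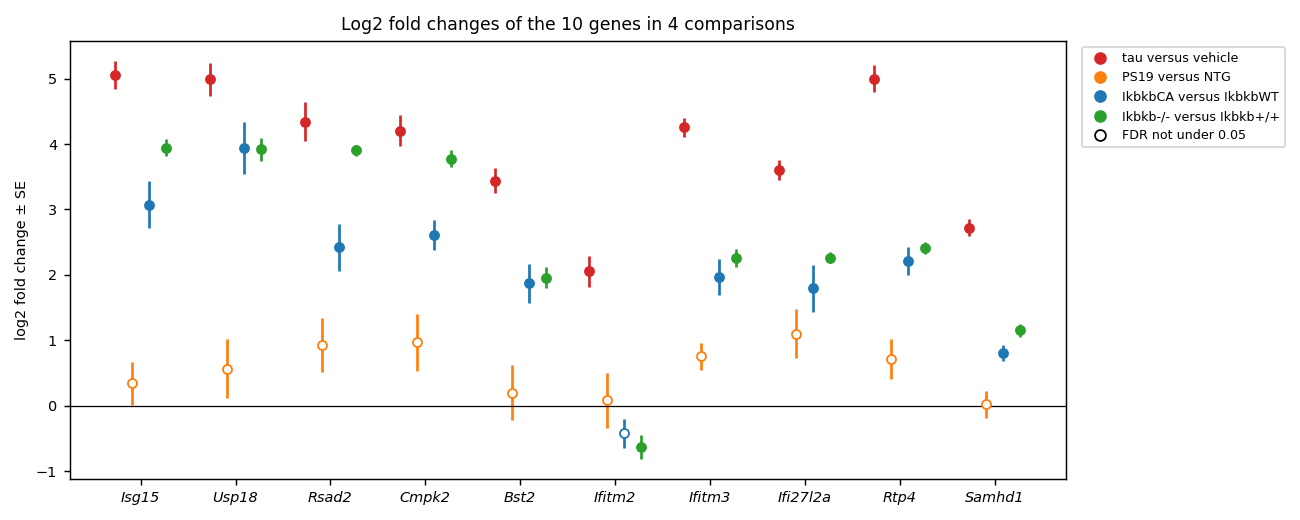
Log2 fold change with its standard error for each gene in the 4 comparisons, filled where the FDR was under 0.05. Tau fibrils gave values of 2.05 to 5.06, and every PS19 value lies between 0.02 and 1.10 with open symbols.

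Isg15 (ENSMUSG00000035692, chr4:156199424-156200818, GRCm38), the ubiquitin-like modifier, was at 197, 193, 289.8 and 217 CPM with tau fibrils and at 8.15, 4.33, 6.97 and 10.7 CPM with vehicle. The groups lay far apart, with a fold of 33.3 (log2 fold change 5.06 ± 0.22, FDR 1.73e-16). In IkbkbCA cultures it was at 267, 289.8, 78.9, 228 and 264 CPM, against 30.6, 34.1, 36.7, 15.1 and 17.7 CPM in IkbkbWT. The third IkbkbCA culture was the lowest of its group and still above all 5 controls, and the fold was 8.42 (log2 3.07 ± 0.36, FDR 0.000156). Ikbkb-/- cultures held 356, 333, 446 and 424 CPM and Ikbkb+/+ cultures 21.6, 24.5, 22.7 and 31.7 CPM. This was a 15.4-fold rise with no overlap (log2 3.95 ± 0.13, FDR 1.92e-13). In PS19 microglia the values were 23.5, 23.04, 11.8 and 10.1 CPM, and in NTG 14.5, 12.7, 10.3 and 14.3 CPM. Both lower PS19 libraries fell within or below the NTG range (log2 0.34 ± 0.33, FDR 0.812). By group mean the highest level was in Ikbkb-/- microglia (389.7 ± 53.6 CPM, SD, n = 4), above IkbkbCA (226 ± 84.9, n = 5) and tau-stimulated microglia (224 ± 45.1, n = 4), which overlapped each other.

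Usp18 (ENSMUSG00000030107, chr6:121245906-121270917), the protease that removes ISG15, was hardly counted in vehicle cultures. It was at 1.09, 4.33, 2.18 and 2.03 CPM there and at 91.1, 81.6, 82.0 and 99.3 CPM with tau fibrils, a 31.8-fold rise (log2 4.99 ± 0.25, FDR 4.61e-15). The vehicle libraries held 2 to 22 counts, so the size of this fold is imprecise. IkbkbCA libraries were at 73.3, 55.4, 36.9, 69.3 and 56.6 CPM and IkbkbWT libraries at 4.32, 2.45, 9.07, 1.31 and 2.15 CPM. Usp18 showed the largest rise of the 10 genes there, 15.4-fold (log2 3.94 ± 0.40, FDR 5.3e-05). In Ikbkb-/- it was at 55.1, 63.7, 81.2 and 70.5 CPM against 7.31, 5.02, 3.84 and 3.58 CPM. That rise was 15.1-fold (log2 3.92 ± 0.18, FDR 1.09e-11), and neither IKKβ comparison had an overlap between groups. PS19 microglia held 10.1, 15.3, 17.7 and 4.91 CPM and NTG 5.70, 13.5, 4.84 and 6.85 CPM, with the groups overlapping (log2 0.57 ± 0.45, FDR 0.761). Unlike Isg15, Usp18 had a higher mean in tau-stimulated (88.5 CPM) than in Ikbkb-/- microglia (67.6 CPM), without overlap, and Ikbkb-/- and IkbkbCA overlapped.

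Rsad2 (ENSMUSG00000020641, chr12:26442746-26456452) and Cmpk2 (ENSMUSG00000020638, chr12:26469204-26479837) lie 12751 bases apart on opposite strands. Rsad2 was at 307, 322, 289 and 338 CPM with tau fibrils and 7.07, 9.25, 9.58 and 42.1 CPM with vehicle. The fourth vehicle culture stood above the other 3 and still far below the fibril-treated ones, and the fold was 20.3 (log2 4.34 ± 0.30, FDR 3.7e-12). IkbkbCA cultures held 415, 363, 118, 367 and 357 CPM and IkbkbWT cultures 64.6, 65.9, 100.2, 35.6 and 35.3 CPM. The third culture of each group brought the ranges close, at 118 against 100.2 CPM, and the rise was 5.35-fold (log2 2.42 ± 0.36, FDR 0.000902). In Ikbkb-/- it was at 689, 622, 608 and 635 CPM and in Ikbkb+/+ at 40.5, 45.2, 43.2 and 43.3 CPM. This 14.9-fold rise had a small spread within groups (log2 3.90 ± 0.09, FDR 1.24e-15), and its mean of 639 CPM was the highest of the 8 groups. PS19 microglia held 31.7, 44.9, 22.4 and 11.8 CPM and NTG 14.5, 7.17, 11.8 and 22.8 CPM, with overlap (log2 0.93 ± 0.42, FDR 0.565).

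Cmpk2, the mitochondrial nucleotide kinase, was at 67.6, 80.3, 81.2 and 99.8 CPM with tau fibrils and 5.98, 2.95, 3.92 and 7.11 CPM with vehicle (18.5-fold, log2 4.21 ± 0.24, FDR 9.77e-14). In IkbkbCA it was at 55.4, 42.0, 32.6, 47.6 and 46.1 CPM and in IkbkbWT at 7.97, 8.57, 10.8, 4.43 and 5.10 CPM (6.10-fold, log2 2.61 ± 0.23, FDR 2.51e-05). Neither pair of groups overlapped. Ikbkb-/- cultures held 64.4, 80.0, 67.2 and 80.6 CPM against 5.11, 5.44, 5.17 and 5.71 CPM in Ikbkb+/+, a 13.7-fold rise (log2 3.78 ± 0.13, FDR 4.42e-13). Every Ikbkb-/- culture was above every IkbkbCA culture, and the Ikbkb-/- range overlapped that of tau-stimulated microglia. In PS19 it was at 4.71, 5.47, 10.6 and 4.74 CPM and in NTG at 3.11, 3.58, 3.79 and 1.71 CPM. All 4 PS19 libraries were above all 4 NTG libraries, the third PS19 library well above the rest, but the difference did not pass the threshold (log2 0.97 ± 0.44, FDR 0.57) and rests on 3 to 18 counts in NTG.

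Samhd1 (ENSMUSG00000027639, chr2:157097533-157135265), a deoxynucleotide hydrolase, was at 312, 274, 292 and 286 CPM with tau fibrils and 43.5, 52.8, 41.0 and 42.7 CPM with vehicle (6.61-fold, log2 2.72 ± 0.14, FDR 4.37e-15). In IkbkbCA it was at 158, 171, 121, 142 and 137 CPM and in IkbkbWT at 85.2, 95.7, 92.2, 70.4 and 71.3 CPM. The rise of 1.75-fold (log2 0.81 ± 0.12, FDR 0.000672) was the smallest among the 9 genes that rose there, with no overlap between groups. The gene was at 186, 206, 172 and 161 CPM in Ikbkb-/- cultures and in Ikbkb+/+ cultures at 89.1, 89.7, 70.9 and 80.9 CPM (2.22-fold, log2 1.15 ± 0.10, FDR 1.52e-07). PS19 and NTG libraries overlapped widely, at 73.7, 82.1, 73.4 and 104 and 70.4, 61.7, 93.0 and 89.6 CPM (log2 0.02 ± 0.20, FDR 0.99). The control groups other than vehicle had means of 78.7 to 83.0 CPM, and the vehicle mean of 45.0 CPM lay below all of them.

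Bst2 (ENSMUSG00000046718, chr8:71534255-71537456), which tethers budding virus, was at 265, 215, 375 and 410.3 CPM with tau fibrils and 28.3, 38.8, 23.5 and 26.9 CPM with vehicle (10.8-fold, log2 3.44 ± 0.19, FDR 4.46e-14). IkbkbCA cultures held 1826, 1578, 669.9, 1536 and 1021 CPM and IkbkbWT cultures 517, 433, 389, 264 and 200.3 CPM. The third IkbkbCA culture was again lowest, the groups did not overlap, and the rise was 3.66-fold (log2 1.87 ± 0.30, FDR 0.00137). The gene was at 1395, 1107, 1867 and 1584 CPM in Ikbkb-/- cultures and in Ikbkb+/+ cultures at 443, 277, 358 and 472 CPM (3.88-fold, log2 1.96 ± 0.16, FDR 5.05e-08). Control levels differed between experiments. Tau-stimulated microglia, after a 10.8-fold rise, reached a mean of 316 CPM, which overlapped that of IkbkbWT (361 CPM). In PS19 it was at 144, 67.4, 38.3 and 25.5 CPM and in NTG at 70.4, 49.8, 58.1 and 49.7 CPM. PS19 libraries lay above, within and below the NTG range (log2 0.20 ± 0.42, FDR 0.923), and without PS19 replicate 1 the sign turned, to -0.45.

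Ifitm2 (ENSMUSG00000060591, chr7:140954837-140955987) and Ifitm3 (ENSMUSG00000025492, chr7:141009586-141010770), membrane proteins of the same family, lie 53598 bases apart on chromosome 7, and the last 300 bases of their transcripts were at most 57.3% identical. Ifitm3 rose in all 3 culture comparisons and Ifitm2 in 1. Ifitm3 was at 767, 825, 842 and 808 CPM with tau fibrils and 47.3, 40.4, 40.5 and 47.7 CPM with vehicle, a 19.1-fold rise (log2 4.26 ± 0.14, FDR 1.52e-18) to the highest mean of the 8 groups. IkbkbCA cultures held 337, 352, 354, 380.1 and 418 CPM and IkbkbWT cultures 82.1, 89.2, 176, 66.8 and 53.8 CPM (3.91-fold, log2 1.97 ± 0.27, FDR 0.000491). Here the third IkbkbCA culture was not lower than the others, and the third IkbkbWT culture was the highest control. Ifitm3 was at 261, 256, 288 and 378 CPM in Ikbkb-/- cultures and in Ikbkb+/+ cultures at 72.7, 74.5, 55.6 and 51.8 CPM (4.77-fold, log2 2.25 ± 0.14, FDR 1.01e-09). In PS19 Ifitm3 was at 67.4, 89.6, 70.9 and 63.5 CPM and in NTG at 31.6, 51.8, 44.6 and 36.0 CPM. All PS19 libraries were above all NTG libraries, a 1.69-fold difference that did not pass the threshold (log2 0.76 ± 0.21, unadjusted p 0.00293, FDR 0.309, edgeR).

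Ifitm2 was at 30.5, 40.0, 47.6 and 37.1 CPM with tau fibrils and 14.7, 10.4, 6.10 and 7.62 CPM with vehicle, the smallest rise of the 10 genes with fibrils (4.15-fold, log2 2.05 ± 0.24, FDR 1.67e-07). In IkbkbCA it was at 12.6, 12.8, 20.4, 19.9 and 18.2 CPM and in IkbkbWT at 17.1, 18.4, 19.8, 34.6 and 21.3 CPM. These ranges overlapped and the difference did not pass (log2 -0.42 ± 0.22, FDR 0.25). Ikbkb-/- cultures held 18.6, 12.98, 9.10 and 11.5 CPM and Ikbkb+/+ cultures 20.5, 21.3, 18.5 and 17.9 CPM. In Ikbkb-/-, 3 of the 4 cultures were below all controls and 1 was not, and Ifitm2 fell 1.55-fold (log2 -0.63 ± 0.18, FDR 0.0237). That call was lost without Ikbkb+/+ replicate 2, Ikbkb-/- replicate 3 or Ikbkb-/- replicate 4 (highest FDR 0.0913). PS19 and NTG libraries, at 10.5, 13.8, 4.88 and 4.09 and 8.29, 6.77, 6.31 and 8.56 CPM, overlapped (log2 0.08 ± 0.42, FDR 0.977), and the sign turned without PS19 replicate 1 or 2 or NTG replicate 3.

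Ifi27l2a (ENSMUSG00000079017, chr12:103442167-103443680), a mitochondrial protein gene, was at 205, 226, 235 and 238 CPM with tau fibrils and 19.0, 18.9, 20.0 and 18.8 CPM with vehicle (12.1-fold, log2 3.60 ± 0.15, FDR 8.32e-17). IkbkbCA cultures held 983, 915, 233, 551 and 456 CPM and IkbkbWT cultures 198, 213, 246, 129 and 110.3 CPM. It was the only gene of the 9 that rose there whose groups overlapped, since the third IkbkbCA culture lay below the third IkbkbWT culture (3.48-fold, log2 1.80 ± 0.36, FDR 0.00545). Ikbkb-/- cultures held 776, 756, 817 and 863 CPM and Ikbkb+/+ cultures 162, 177, 176 and 162 CPM (4.80-fold, log2 2.26 ± 0.08, FDR 4.84e-13). In PS19 it was at 137, 93.6, 98.9 and 30.9 CPM and in NTG at 30.6, 58.1, 32.4 and 38.8 CPM. Of the 4 PS19 libraries 3 were above all NTG libraries, and this was the largest PS19 fold of the 10 genes (2.15-fold, log2 1.10 ± 0.37, unadjusted p 0.011, FDR 0.43, edgeR). With no filter on low counts its FDR was 0.000729, and without PS19 replicate 1, its highest library, the log2 fold change was 0.83 with an FDR of 0.575. The neighbouring family member Ifi27l2b had 0 counts in all 34 libraries.

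Rtp4 (ENSMUSG00000033355, chr16:23520291-23614222), the receptor transporter, was at 274, 263, 318 and 361 CPM with tau fibrils and 7.07, 9.05, 6.53 and 17.3 CPM with vehicle (32.0-fold, log2 5.00 ± 0.21, FDR 1.09e-16). IkbkbCA cultures held 167, 153, 83.4, 152 and 163 CPM and IkbkbWT cultures 28.1, 35.3, 41.8, 22.6 and 26.8 CPM, without overlap (4.63-fold, log2 2.21 ± 0.21, FDR 4.18e-05). In Ikbkb-/- it was at 159, 174, 172 and 169 CPM and in Ikbkb+/+ at 34.0, 33.7, 32.4 and 28.9 CPM (5.33-fold, log2 2.41 ± 0.09, FDR 7.37e-13). The Ikbkb-/- and IkbkbCA ranges overlapped, and both lay below all 4 tau-stimulated cultures. PS19 microglia held 22.8, 27.1, 24.5 and 13.9 CPM and NTG 7.77, 17.9, 14.5 and 10.3 CPM (log2 0.72 ± 0.30, unadjusted p 0.0352, FDR 0.539, edgeR), with the fourth PS19 library inside the NTG range.

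**Figure D3:**
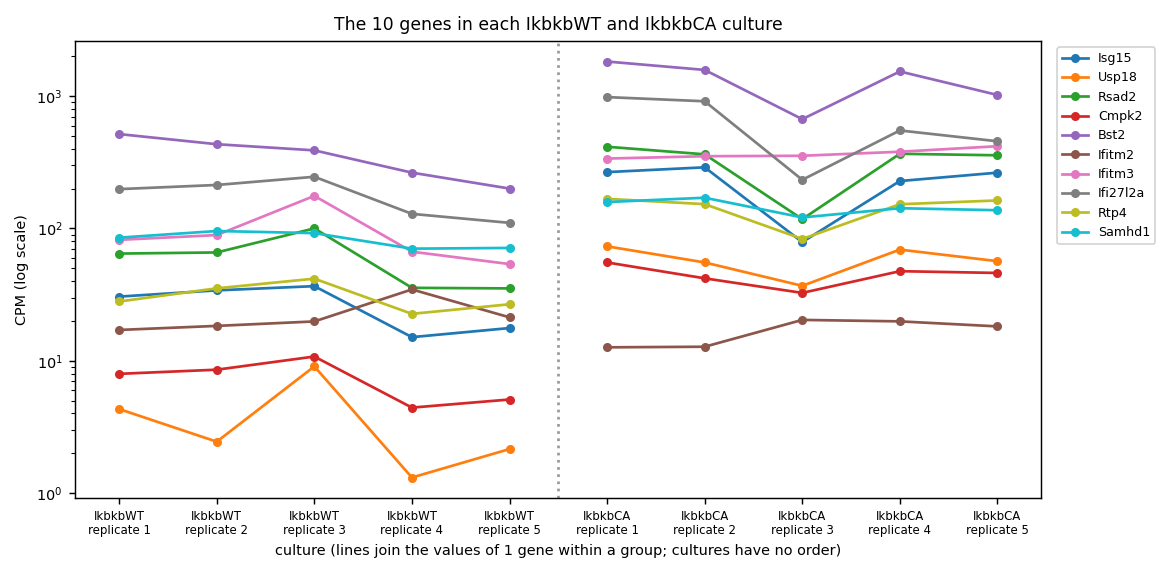
CPM on a log scale of the 10 genes in each IkbkbWT and IkbkbCA culture, where each line joins the values of 1 gene within a group. IkbkbCA replicate 3 is the lowest of its group for 8 genes, with Isg15 at 78.9 CPM against 228 to 289.8 CPM in the other 4.

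In the IkbkbCA group, replicate 3 was the lowest library for 8 of the 10 genes, and in the IkbkbWT group replicate 3 was the highest for 7. These were also the cultures with high Mbp. Without both, the 9 genes remained called, with log2 fold changes of 0.91 to 4.64, and with 3 sets of libraries that resembled each other (replicates 1 and 2, replicate 3, and replicates 4 and 5 of both groups) as a covariate the same 9 genes were called. When the counts of libraries that resembled each other were summed, leaving 3 libraries a group,  Isg15, Usp18, Cmpk2 and Rtp4 passed (FDR 0.0158 to 0.0404), and the other 5 kept log2 fold changes of 0.74 to 2.12 with FDRs of 0.0643 to 0.183. In Ikbkb-/-, the same summing, to 2 libraries a group, kept the 9 higher calls and lost that of Ifitm2.

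The difference between the effects of active IKKβ and of Ikbkb deletion was tested in one fit of the 18 libraries, in which each genotype has its own controls. Xist was unevenly spread over genotypes and controls in both experiments, as given above. The part of pup sex in these differences was not tested. Cmpk2 rose less in IkbkbCA than in Ikbkb-/- microglia (difference of log2 fold changes -1.14 ± 0.29, FDR 0.0357), and it was the only 1 of the 10 called, against 0.899% of 12352 genes called lower and 2.23% called higher. Its neighbour Rsad2 had a difference of -1.47 ± 0.42 that missed the threshold (FDR 0.0666). Isg15 came next, at -0.86 ± 0.42 (FDR 0.345). For Usp18 the difference was 0.08 ± 0.49, for Bst2 -0.07 ± 0.39 and for Rtp4 -0.18 ± 0.25, and none of these passed. Samhd1 (-0.33 ± 0.17), Ifi27l2a (-0.45 ± 0.42), Ifitm3 (-0.26 ± 0.35) and Ifitm2 (0.21 ± 0.31) did not pass either. Leaving out 1 library at a time, the Cmpk2 difference lay between -1.28 and -0.96, and the call was lost without IkbkbWT replicate 1, 2 or 3, IkbkbCA replicate 2, any of the 4 Ikbkb+/+ replicates, or Ikbkb-/- replicate 2 or 4 (FDR 0.0506 to 0.0867). Without IkbkbWT replicate 4 or 5 or IkbkbCA replicate 3, Rsad2 passed as well (FDR 0.0322 to 0.0411).

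The tau fibril effect was set against the IkbkbCA effect in one fit of 18 libraries, which shares the IkbkbCA and IkbkbWT libraries with the test above. Of the 10 genes 8 rose more with tau fibrils, against 5.88% of 12841 genes (3.55% rose less). The largest difference was that of Rtp4 (2.71 ± 0.34, FDR 3.68e-05), followed by Ifitm2 (2.40 ± 0.35) and Ifitm3 (2.21 ± 0.32). The difference was 1.89 ± 0.51 for Isg15, 1.85 ± 0.17 for Samhd1, 1.73 ± 0.45 for Ifi27l2a, 1.51 ± 0.37 for Cmpk2 and 1.50 ± 0.41 for Bst2. Rsad2 (1.83 ± 0.59, FDR 0.0576) and Usp18 (1.00 ± 0.58, FDR 0.311) did not pass. Calls of Isg15 and Cmpk2 were lost without vehicle replicate 2 and that of Bst2 without vehicle replicate 3, and Rsad2 passed without vehicle replicate 4 (2.71, FDR 0.003), IkbkbWT replicate 4 or 5, or IkbkbCA replicate 1 or 3 (FDR 0.0386 to 0.0496). With limma-voom the calls of Isg15, Bst2 and Ifi27l2a were lost (FDR 0.104, 0.0807 and 0.0619) and Rsad2 passed (FDR 0.0431). By the study's methods, microglia were re-seeded for fibril treatment while floating microglia were collected for other RNA measurements, and control levels differed between the experiments as given above.

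**Figure D4:**
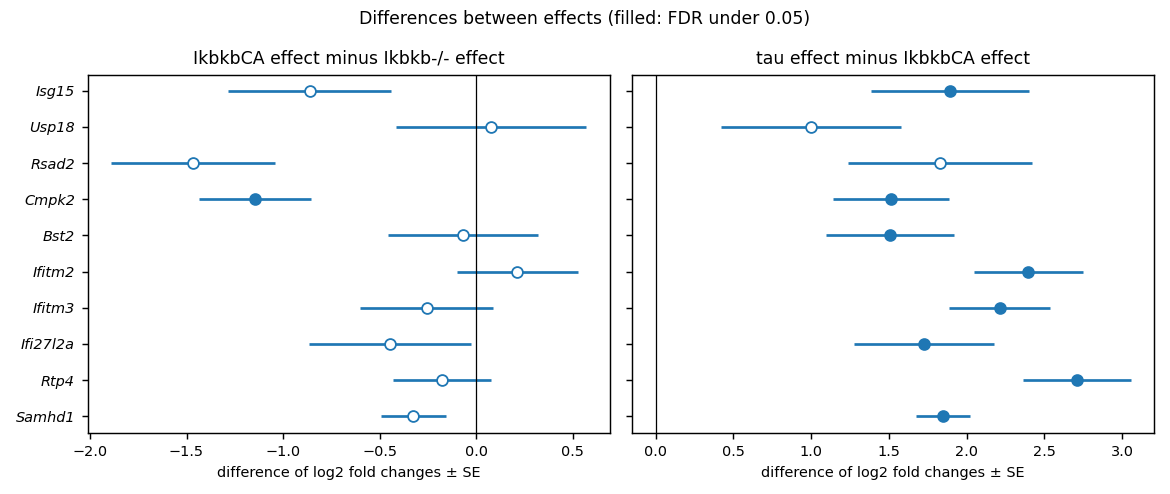
Difference of log2 fold changes with its standard error for each gene, between the IkbkbCA and Ikbkb-/- effects (left) and between the tau fibril and IkbkbCA effects (right), filled where the FDR was under 0.05. On the left only Cmpk2 (-1.14) is filled, and on the right 8 of 10 are filled and all lie above 0.

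Most genes of the ISG15 pathway rose with tau fibrils and in both IKKβ genotypes. Of the 7 genes for ISG15, its conjugation and its removal, Isg15 and Usp18 included, 6 rose with tau fibrils, among them the activating enzyme Uba7 (log2 fold change 3.10 ± 0.29) and the conjugating enzyme Ube2l6 (2.80 ± 0.49). In IkbkbCA 5 rose, with the ligase Herc6 at 1.80 ± 0.27 and Ube2l6 at 1.79 ± 0.38, and in Ikbkb-/- 6 rose, with Herc6 at 2.26 ± 0.13 and Ube2l6 at 2.18 ± 0.26. None of the 6 tested passed in PS19. Of all genes tested, 14.5%, 7.31%, 7.71% and 0.0707% rose with tau fibrils, in IkbkbCA, in Ikbkb-/- and in PS19. The medians of this list were 2.80, 1.79, 2.18 and 0.14 with tau fibrils, in IkbkbCA, in Ikbkb-/- and in PS19, where the medians over all genes tested were -0.01, -0.05, 0.00 and 0.00.

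Of 13 other restriction factor genes tested, 11 rose with tau fibrils, 9 in IkbkbCA, 8 in Ikbkb-/- and none of 12 in PS19, where 14.5%, 7.31%, 7.71% and 0.0707% of all genes tested rose. The medians of the list were 1.60, 1.27, 0.96 and 0.04, against -0.01, -0.05, 0.00 and 0.00 over all genes. Mx1, a dynamin-like GTPase that traps viral nucleocapsids, had a log2 fold change of 5.77 ± 0.52 with tau fibrils, 3.08 ± 0.49 in IkbkbCA and 3.22 ± 0.27 in Ikbkb-/-, and its relative Mx2 had 4.84 ± 0.60, 2.12 ± 0.35 and 3.23 ± 0.30. The exonuclease Isg20 had 4.72 ± 0.56, 2.93 ± 0.51 and 3.36 ± 0.28. Trim30a rose by 2.83 ± 0.14 with tau fibrils and 1.81 ± 0.08 in Ikbkb-/-, and Ch25h, which makes 25-hydroxycholesterol, by 2.24 ± 0.34 in IkbkbCA. One gene of the list, Serinc5, fell with tau fibrils (log2 -0.76 ± 0.27), and it is named here after its value was seen.

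Relatives within the families differed. Of the 7 IFITM genes, 3 passed the filter in cultures, Ifitm2, Ifitm3 and Ifitm10. Ifitm10, named here after its values were seen, did not pass the test in any (log2 -0.74 ± 0.44, 0.21 ± 0.43 and 0.41 ± 0.37 with tau fibrils, in IkbkbCA and in Ikbkb-/-). Ifi27, a relative of Ifi27l2a, fell in IkbkbCA (log2 -0.88 ± 0.25, FDR 0.0362) and in Ikbkb-/- (log2 -1.54 ± 0.09, FDR 5.22e-10), where Ifi27l2a rose, and had -0.19 ± 0.19 with tau fibrils (FDR 0.502). Of the 4 RTP genes only Rtp4 passed the filter on low counts.

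Of the genes of deoxynucleotide metabolism, a list that holds the members Samhd1 and Cmpk2, 4 of 12 rose and 3 fell with tau fibrils (14.5% and 15.4% of all genes), and 3 of 14 rose and none fell in IkbkbCA (7.31% and 7.16%). In Ikbkb-/- 3 of 13 rose and 5 fell (7.71% and 6.88%). Samhd1 and Cmpk2 were among the risen genes each time. The salvage kinase Dck rose in each (log2 1.84 ± 0.20, 1.57 ± 0.22 and 1.24 ± 0.12), while the ribonucleotide reductase subunit Rrm2 fell with tau fibrils (-1.53 ± 0.21) and in Ikbkb-/- (-1.35 ± 0.19), as did the S-phase thymidine kinase Tk1 in Ikbkb-/- (-1.25 ± 0.26). The medians of the list were -0.01, -0.09 and -0.21.

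Of 12 genes of the interferon signal, 11 rose with tau fibrils, 6 in IkbkbCA, 4 in Ikbkb-/- and none in PS19, where 14.5%, 7.31%, 7.71% and 0.0707% of all genes tested rose. Irf7, the interferon-inducible regulator of the type I interferon genes, had log2 fold changes of 6.32 ± 0.19, 4.20 ± 0.38 and 5.07 ± 0.20 with tau fibrils, in IkbkbCA and in Ikbkb-/-, above those of each member in the same comparison. Stat2, a signal transducer of the type I interferon receptor, had 3.29 ± 0.17, 2.04 ± 0.28 and 2.73 ± 0.11. None of 19 interferon ligand genes passed the filter on low counts in any comparison. Their summed count was 0 in all 4 tau fibril libraries, which at these depths allows up to 1.10 to 1.71 CPM for a gene at 0 (counting error only), and at most 4 in the other cultured libraries. PS19 replicate 3 held 21 counts of Ifnb1 (3.01 CPM), against 0 to 2 counts in the other PS19 libraries and 0 in NTG. The same library lay above all NTG libraries for Cmpk2, Usp18, Ifitm3, Ifi27l2a and Rtp4. It was within their range for Isg15, Rsad2 and Samhd1, and below it for Bst2 and Ifitm2. A link was not tested.

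Likeness was measured as the Euclidean distance between genes over the 4 log2 fold changes, among 9367 genes tested in all 4 comparisons. The gene outside the set nearest to Isg15 and to Usp18 was Ifit1 (distances 0.60 and 0.70), with log2 fold changes of 4.93, 0.05, 3.54 and 4.14 with tau fibrils, in PS19, in IkbkbCA and in Ikbkb-/-. Zbp1 was nearest to Rsad2 (0.72), Oasl2 to Cmpk2 (0.76), Lgals9 to Samhd1 (0.19), Rnf213 to Bst2 (0.28), Dhx58 to Ifitm3 (0.29), Cd72 to Ifi27l2a (0.37) and H2-T24 to Rtp4 (0.56). Ifitm2 was nearest to Sla (0.38), which had 1.75, -0.15, -0.39 and -0.67 in the same order.

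Markers of other cell types moved with several groups. With tau fibrils the summed CPM of the 8 microglia markers was 10021 to 11512 against 4182 to 5594 with vehicle (6 of 8 rose, median log2 1.40), 4 of 6 neuronal and 3 of 6 astrocytic markers fell, and the neuronal sum was 64.3 to 80.3 CPM against 125 to 159 CPM. The 10 genes had a median of 4.23 there, and the part of these markers in their rise was not tested. The endothelial sum was 55.4 to 65.1 CPM with tau fibrils and 102 to 123 CPM with vehicle (1 of 2 tested fell). In IkbkbCA 4 of 8 microglia markers rose and 1, Cx3cr1, fell, and the granulocyte sum was 17.4 to 86.0 CPM against 7.18 to 14.5 CPM in IkbkbWT (1 of 2 tested rose). In Ikbkb-/- 2 of 8 microglia markers rose and 3 fell, and the endothelial sum was 168 to 220.2 CPM against 67.3 to 128 CPM in Ikbkb+/+ (1 of 3 tested rose and 1 fell). The border-associated macrophage sum was 489 to 1034 CPM in IkbkbCA against 1393 to 1966 CPM in IkbkbWT (4 of 5 tested fell), and 422 to 741 CPM in Ikbkb-/- against 1510 to 1849 CPM in Ikbkb+/+ (5 of 5 fell). Of 6 oligodendrocyte markers 4 rose in Ikbkb-/- (sum 535 to 609.7 CPM against 292 to 411 CPM), and 2 of 3 tested granulocyte markers fell there, where 1 Ikbkb+/+ library reached a sum of 409 CPM. The oligodendrocyte sum reached 4748 CPM in IkbkbWT replicate 3 and 1744 CPM in IkbkbCA replicate 3. Neuronal markers summed to 94.0 to 115.7 CPM in replicates 4 and 5 of IkbkbWT and IkbkbCA, against 5.51 to 22.3 CPM in replicates 1 to 3 of both. Fibroblast markers split alike, at 15.9 to 26.9 CPM against 0 to 1.89 CPM. Granulocyte markers summed to 424 to 2559 CPM in PS19 and 1524 to 2123 CPM in NTG, with none of 6 called. Astrocyte markers summed to 856 to 1966 CPM in PS19 and 632 to 971 CPM in NTG, and endothelial markers to 326 to 650.0 CPM and 243 to 406 CPM, again with none called. Markers of T and NK cells reached at most 1.87 CPM and those of fibroblasts at most 32.6 CPM in any library. Their part in the differences of the 10 genes was not tested.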

How the data were processed

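QuantSeq 3′ mRNA-Seq (FWD) counts of 34 mouse microglia libraries were analysed, and 24 cortex samples were not analysed here. The authors mapped reads with the Lexogen QuantSeq pipeline on BlueBee to GRCm38 with GENCODE annotation, and the labels name STAR, RSEM, edgeR and limma. The deposited tables hold raw counts per Ensembl gene without normalization, and 5 lines of uncounted reads (12.4% to 38.3% of uniquely mapped reads outside genes) were left out. A 3′ count does not grow with transcript length. Symbols came from GENCODE M21.

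Each comparison was fitted on its 2 groups in R 4.3.3 with edgeR 4.0.16 (TMM, filterByExpr with minimum count 10 and total 15, quasi-likelihood test, Benjamini-Hochberg FDR under 0.05 over all genes tested), and differences of effects in one fit. SEs were derived from log2 fold change and F. CPM used TMM over 34 libraries. Groups followed the sample labels. DESeq2 1.42.0, limma 3.58.1, other scalings, filters, covariates and left-out libraries were alternatives, and summed libraries, library sets as a covariate and leaving out replicate 3 of both IkbkbCA and IkbkbWT were chosen after seeing the data. Scripts were tested on simulated data. There 27.2% of 2-fold changes were recovered for PS19, against 71.1% for tau fibrils, 68.35% for IkbkbCA and 85.4% for Ikbkb-/-. Absence of a call in PS19 therefore says little about changes of 2-fold or less. False calls were 3.30%, 7.01%, 2.33% and 8.93% of all calls in the same order.

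The members and gene lists were chosen with earlier results of these data known. Named genes are the members, Ikbkb and Cx3cr1, at most 4 called genes per pathway list and comparison by size of change, and the gene nearest to each member. One gene that this rule names is not reported here.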

Additional observations from a re-analysis of the deposited data

Results flagged for a closer look

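Within groups, 6 of 80 sets of values of 1 gene in 1 group held a library far from the others by Dixon's test, where chance gives about 1 in 20, or 4. Ifitm2 was at 34.6 CPM in IkbkbWT replicate 4, against 17.1 to 21.3 CPM in the other 4 cultures. Ifitm3 was at 176 CPM in IkbkbWT replicate 3, against 53.8 to 89.2 CPM. In IkbkbCA replicate 3, Rtp4 was at 83.4 CPM, against 152 to 167 CPM, and Rsad2 at 118 CPM, against 357 to 415 CPM. Cmpk2 was at 10.6 CPM in PS19 replicate 3, against 4.71 to 5.47 CPM. Rsad2 was at 42.1 CPM in vehicle replicate 4, against 7.07 to 9.58 CPM.

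The effect of active IKKβ differed from that of Ikbkb deletion for Cmpk2 (difference of log2 fold changes -1.14, edgeR FDR 0.0357). This call was kept in only 13 of 25 alternatives, and was lost with limma-voom (FDR 0.123) and with close libraries summed. Pup sex was uneven in both IKKβ experiments by Xist, and its part in this difference was not tested. The effect of tau fibrils exceeded that of active IKKβ for 8 genes, by 1.89 for Isg15, 1.51 for Cmpk2, 1.50 for Bst2, 2.40 for Ifitm2, 2.21 for Ifitm3, 1.73 for Ifi27l2a, 2.71 for Rtp4 and 1.85 for Samhd1. These 2 tests share the IkbkbCA and IkbkbWT libraries.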

How the results depend on the processing

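Over scalings, tools, filters, left-out libraries, joint fits and covariates, the values of single genes kept direction and side of the threshold in 148 of 148 alternatives with tau fibrils, 157 of 168 in PS19, 204 of 209 in IkbkbCA, 164 of 170 in Ikbkb-/-, 218 of 249 for IkbkbCA against Ikbkb-/- and 224 of 238 for tau against IkbkbCA. With no filter on low counts 1 gene, Ifi27l2a, passed in PS19. With close libraries summed, 4 genes instead of 9 passed in IkbkbCA. The lower call of Ifitm2 in Ikbkb-/- became 0 in the fit of 34 libraries, in the fit of 18 and with libraries summed, and was 0 to 1 leaving out 1 library. For IkbkbCA against Ikbkb-/-, lower calls were 2 with DESeq2, 2 with no filter, 0 with limma-voom, 0 with libraries summed and 0 to 2 leaving out 1 library. For tau against IkbkbCA, 6 to 9 genes passed leaving out 1 library, limma-voom ended 3 calls (Isg15, Bst2 and Ifi27l2a), and Rsad2 passed with limma-voom, with no filter and with 10 counts required in every library. Signs turned in PS19 for Bst2 (-0.10) and Ifitm2 (-0.14) with limma-voom and Samhd1 (-0.19) with age as a covariate. Leaving out 1 library gave -0.45 to 0.47 for Bst2, -0.25 to 0.31 for Ifitm2 and -0.11 to 0.11 for Samhd1. For IkbkbCA against Ikbkb-/-, Usp18 was -0.15 with libraries summed, and leaving out 1 library gave -0.14 to 0.63 for Usp18, -0.22 to 0.10 for Bst2 and -0.41 to 0.11 for Ifitm3. The causes were not tested.

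Counts over all genes moved more. In PS19, 8 higher and 0 lower became 83 and 20 with DESeq2, 127 and 39 with no filter, 296 and 75 in the fit of 34 libraries, 4 higher with limma-voom and 0 with age as a covariate, and 4 to 39 higher and up to 15 lower leaving out 1 library (both highest without PS19 replicate 2). With tau fibrils 1603 lower became 773 in the fit of 34 libraries. In IkbkbCA, 855 higher and 837 lower became 1286 and 1560 with library sets, 240 and 97 with libraries summed, 536 lower with no filter, 447 lower in the fit of 34, 515 without IkbkbWT replicate 1 and 548 without IkbkbCA replicate 5. In Ikbkb-/-, 867 and 774 became 264 and 251 in the fit of 34, 444 and 431 in the fit of 18, and 447 and 393 with libraries summed. For IkbkbCA against Ikbkb-/-, 275 and 111 became 22 and 0 with libraries summed, and 193 lower with total-count scaling and 175 with DESeq2. Libraries of 1672052 to 8349128 counts limit low genes most, such as Usp18 in vehicle (2 to 22 counts). The labels give no replicate numbers that pair samples, so no pairing could be taken from them. A fit with library sets as a covariate was run for IkbkbCA, and those sets came from titles and likeness, not from labels.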
